A study of Mus musculus with 2 samples.

Results

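Neutrophil granule genes were followed in a pair of single-cell libraries from subcutaneous tumours grown from 4T1 cells, a mouse mammary carcinoma line. The 6 genes were S100a8, S100a9, Camp, Ngp, Ltf and Lcn2, taken by symbol from the 32285 genes of the deposited tables, and all 6 were present in both. In 1 library the tumour-bearing mice had received AIE COF, a covalent organic framework, with phototherapy, and in the other they had received PBS; tumours were taken on day 7 after phototherapy. The AIE COF library is called treated below. The labels give the strain as C57BL/c, a name left as it stands, and do not say how many animals or tumours entered a suspension or whether PBS mice were irradiated. The genes were chosen with their levels in these libraries known, so the difference between libraries is given as a description. With 1 library per condition no test was possible, and every interval is a 95% interval for counting error only. The treated library could therefore differ from the PBS library through the animals, the dissociation or the library preparation as well as through the treatment, and these cannot be told apart.

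Neutrophils load their granules in the bone marrow in successive waves. Primary granules are filled at the promyelocyte stage with myeloperoxidase and serine proteases, secondary and tertiary granules at the myelocyte and metamyelocyte stages with antimicrobial and iron-binding proteins. Ltf encodes lactoferrin and Lcn2 encodes lipocalin-2, which take iron and iron-carrying siderophores away from bacteria. Camp encodes the cathelicidin antimicrobial peptide and Ngp the neutrophilic granule protein, both made by immature cells, while S100a8 and S100a9 encode the subunits of calprotectin, a calcium- and zinc-binding cytosolic protein that circulating neutrophils keep in quantity and that monocytes also make. Neutrophils hold little RNA, so they give small droplet libraries and are easily lost at a minimum on UMIs, the unique molecular identifiers that count captured transcripts. 4T1 tumours are known for a strong expansion of neutrophils in blood and spleen.

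The upstream sequences of the calprotectin pair and of the pair of early granule genes are shown because these 4 genes carry most of the difference between the libraries and C/EBP factors are known regulators of granule genes. Each run is the 250 bases before the RefSeq transcription start on GRCm38.p6, given 5′ to 3′ on the strand of the gene: chr3:90668821-90669070 (plus strand) for S100a8, chr3:90695722-90695971 (minus strand) for S100a9, chr9:109849457-109849706 (minus strand) for Camp and chr9:110419558-110419807 (plus strand) for Ngp. Capitals mark each match to a C/EBP core, searched as TTNNGNAA and, for the other strand, TTNCNNAA.
S100a8: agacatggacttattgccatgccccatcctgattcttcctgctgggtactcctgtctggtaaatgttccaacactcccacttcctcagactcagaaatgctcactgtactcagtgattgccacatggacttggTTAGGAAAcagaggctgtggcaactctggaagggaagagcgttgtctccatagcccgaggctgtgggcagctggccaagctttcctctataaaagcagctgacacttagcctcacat
S100a9: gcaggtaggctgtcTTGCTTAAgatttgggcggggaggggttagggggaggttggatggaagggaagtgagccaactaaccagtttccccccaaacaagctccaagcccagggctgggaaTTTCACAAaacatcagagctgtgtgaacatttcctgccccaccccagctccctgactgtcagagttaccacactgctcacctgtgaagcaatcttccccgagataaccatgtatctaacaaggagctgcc
Camp: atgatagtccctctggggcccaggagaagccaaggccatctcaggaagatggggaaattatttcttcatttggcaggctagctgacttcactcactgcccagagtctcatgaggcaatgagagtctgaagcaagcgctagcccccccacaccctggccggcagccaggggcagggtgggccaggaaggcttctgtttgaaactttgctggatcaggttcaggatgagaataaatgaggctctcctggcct
Ngp: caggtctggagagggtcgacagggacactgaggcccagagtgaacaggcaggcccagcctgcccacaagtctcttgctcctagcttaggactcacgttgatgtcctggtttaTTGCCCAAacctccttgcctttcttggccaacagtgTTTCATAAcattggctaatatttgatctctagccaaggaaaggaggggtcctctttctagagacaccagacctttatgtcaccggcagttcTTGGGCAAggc

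Of the 6 genes, all matched a RefSeq window. Ngp held 3 matches, S100a9 and Ltf held 2 each, S100a8 and Lcn2 held 1 each, and Camp held none in these letters. Across all 32851 windows of 27025 genes, 36.8% held at least 1 such match, so a match in this window is common. TATAAA, searched on the strand of the gene only, was present in the S100a8 window alone among the 6, against 7.59% of all windows. In the GENCODE M21 annotation of the same build, S100a8 and S100a9 lie on chromosome 3 at 90668978 to 90670035 and 90692632 to 90695721, Camp, Ngp and Ltf on chromosome 9 at 109847379 to 109849617, 110419747 to 110423012 and 111019271 to 111042767, and Lcn2 on chromosome 2 at 32384633 to 32388252. Against these GENCODE spans, only the S100a9 window lies wholly before its gene. The S100a8, Camp, Ngp and Ltf windows reach into their genes, and the Lcn2 window lies inside Lcn2. The windows are thus upstream of the RefSeq start only. None of the 6 genes overlaps another annotated gene, so none of them shares its span with a neighbour.

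The treated library held 10002 barcodes and 115576457 UMIs, with a median of 3551 UMIs per barcode, and the PBS library held 8962 barcodes and 145045294 UMIs, with a median of 5980. The lowest total was 500 UMIs in both, so shallower barcodes are not analysed here. The libraries shared 39 barcode sequences, of which 2 carried a granule gene in the treated library and 3 in the PBS library. After filtering and removal of the highest doublet scores, 8619 treated and 7864 PBS barcodes were clustered without the 6 genes. The sample is labelled 4T1: its main non-immune class, with under 100 CPM of the leukocyte gene Ptprc and called Ptprc-low, held 3353 treated and 4638 PBS cells and carried the tumour-line marker Hmga2 at 380 CPM in treated and 349 CPM in PBS cells, while the epithelial markers Epcam, Krt8 and Krt18 were each below 1 CPM. CPM is UMIs per 1000000 UMIs of the library or class.

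Granule gene RNA was rare in both libraries and was more abundant in the treated one, and almost all of the excess lay in 2 barcodes. Over all barcodes, S100a8 had 1418 treated and 97 PBS UMIs, S100a9 1118 treated and 41 PBS, Camp 649 treated and 6 PBS, Ngp 433 treated and 1 PBS, Ltf 138 treated and 64 PBS, and Lcn2 107 treated and 17 PBS. Each of the 6 was at least 1.5-fold higher in the treated library, where 8.94% of the 15954 genes with at least 50 UMIs over both libraries were that much higher and 4.63% that much lower. Nothing is read from that count, since the genes were chosen with it known. Without the 10 barcodes richest in each gene, 9.80% of 15936 genes were at least 1.5-fold higher and 6.90% at least 1.5-fold lower. These genes had at least 50 UMIs before the removal and some after it. Of the 6, S100a8 had 57 treated and 23 PBS UMIs left, a log2 ratio of 1.64. Ltf had 30 treated and 35 PBS left, a log2 ratio of 0.10. S100a9 had 21 treated UMIs left, Camp 15 and Ngp 17, each against 0 in PBS. With PBS taken at 3 UMIs, their log2 ratios were 3.13 for S100a9, 2.65 for Camp and 2.83 for Ngp. Lcn2 had 0 left in both libraries.

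The number of barcodes behind those UMIs was small. At least 1 granule gene UMI was found in 171 treated barcodes (1.71%, exact interval 1.46 to 1.98%) and in 87 PBS barcodes (0.971%, 0.778 to 1.20%). S100a8 was seen in 60 treated and 30 PBS barcodes, S100a9 in 31 treated and 4 PBS, Camp in 25 treated and 6 PBS, Ngp in 27 treated and 1 PBS, Ltf in 40 treated and 45 PBS, and Lcn2 in 9 treated and 8 PBS. The gap between libraries that is wide in UMIs is narrower in barcodes for all 6 genes. As a log2 ratio of shares it was 0.84 for S100a8, 2.80 for S100a9, 1.90 for Camp and 4.596 for Ngp. It was nearly closed for Lcn2, at 0.012, and reversed in sign for Ltf, at -0.33. The Ltf shares had overlapping intervals, 0.286 to 0.544% treated and 0.366 to 0.671% PBS. After each barcode of at least 1000 UMIs was thinned to 1000, which left out 1351 treated and 934 PBS barcodes, S100a8 was found in 14 treated and 11 PBS barcodes, S100a9 in 6 treated and 1 PBS, Camp in 9 treated and 1 PBS, Ngp in 3 treated and 0 PBS, Ltf in 12 treated and 8 PBS, and Lcn2 in 3 treated and 2 PBS.

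The 2 treated barcodes that carried all 6 genes had no counterpart in the PBS library, where 0 of 8962 barcodes allows a share of up to 0.0335%, taken as 3 counts. The treated share, 2 of 10002 barcodes, lies below that limit, so the libraries are not shown to differ in it. The 2 barcodes held 91.5% of the treated S100a8 UMIs, 91.1% of S100a9, 96.5% of Camp, 94.2% of Ngp, 87.9% of Lcn2 and 67.4% of Ltf. Apart from them, no treated barcode carried more than 2 of the 6 genes, and 1 PBS barcode carried 3. Among the 14229 genes whose UMIs were ranked by the share in their own 2 richest treated barcodes, these 6 stood at places 5 (Camp), 7 (Ngp), 8 (S100a8), 9 (S100a9), 11 (Lcn2) and 17 (Ltf), against a median share of 1.01%.

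**Figure D1:**
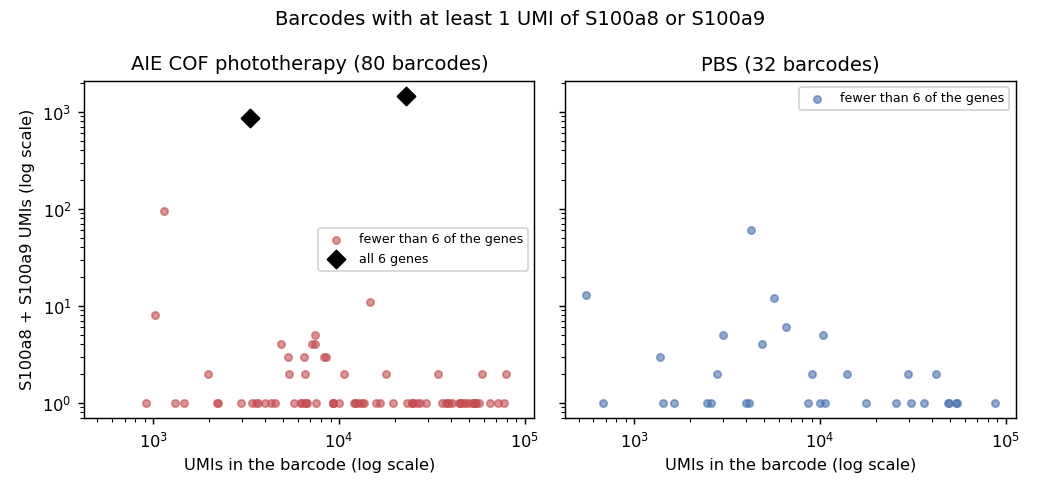
Barcodes with at least 1 UMI of S100a8 or S100a9, treated on the left (80 barcodes) and PBS on the right (32 barcodes), plotted as their S100a8 and S100a9 UMIs against their total UMIs, both on log axes; diamonds mark the 2 barcodes with all 6 genes. Most points lie at 1 UMI, at any depth, and the 2 diamonds stand at the top of the treated panel.

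The smaller of the 2 barcodes carried most of the neutrophil markers beside the granule genes. It held 3332 UMIs, of which the 6 genes made up 41.3% (39.6 to 43.0%): 474 UMIs of S100a8, 396 of S100a9, 208 of Camp, 201 of Ngp, 60 of Ltf and 38 of Lcn2. It had UMIs of 9 of the 12 neutrophil markers that are not granule genes of the set, among them 13 of Retnlg, a resistin-like secreted protein, 4 of the surface antigen Ly6g and 3 of the collagenase Mmp8. Other secondary granule and neutrophil transcripts were also high in it, with 48 UMIs of Wfdc21, 22 of Ifitm6, 20 of the cystatin Stfa1 and 8 of Pglyrp1, while Mpo and Elane of the primary granules were at 0. It was placed in the monocyte-like cluster. Over both barcodes with all 6 genes, the primary granule gene Ms4a3 had 2 of its 3 treated UMIs and Fcnb 1 of 4. Prtn3, Mpo and Elane had 0 in both.

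The larger barcode held 22911 UMIs and carried granule genes beside genes of the Ptprc-low class. It had 824 UMIs of S100a8, 623 of S100a9, 418 of Camp, 207 of Ngp, 56 of Lcn2 and 33 of Ltf, together 9.43% (9.06 to 9.82%) of its total. Only 3 of the 12 markers were seen in it, with 5 UMIs of the integrin gene Itgb2l and 2 each of Cd177 and Csf3r, beside 46 UMIs of Wfdc21, 48 of Chil3 and 57 of Lyz2, while Retnlg and Ly6g were at 0. It also held 8 UMIs of Hmga2, equal to 349 CPM (151 to 688) and near the 380 CPM of the treated Ptprc-low class where it was placed, and 17 of Top2a and 7 of Ptprc. Rhox5, a 4T1-associated gene, had 5 UMIs, equal to 218 CPM (70.9 to 509) against 767 CPM in that class, and Dcn had 16, equal to 698 CPM (399 to 1134) against 1462 CPM. Ptprc, with more UMIs than Rhox5 in this barcode, was above the 16.3 CPM it has in that class. The doublet score of this barcode ranked 2322nd from the top of 9313 barcodes, below the 694 removed, and whether it holds more than 1 cell was not tested.

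Ngp and Ltf took unlike proportions in these barcodes, and the other genes of the set differed less. S100a9 per UMI of S100a8 was 0.835 in the smaller and 0.756 in the larger barcode, Camp 0.439 in the smaller and 0.507 in the larger, and Lcn2 0.0802 in the smaller and 0.0680 in the larger. Ngp was 0.424 in the smaller and 0.251 in the larger, and Ltf 0.127 in the smaller and 0.0400 in the larger.

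Barcodes with at least 5 UMIs of S100a8 and S100a9 together, called S100-rich here, numbered 6 in each library, a share of 0.0600% (0.0220 to 0.131%) treated and 0.0669% (0.0246 to 0.146%) PBS. The threshold was set with earlier results of these data known. Just below it, 3 treated barcodes and 1 PBS barcode held 4 UMIs, and just above it 1 treated and 2 PBS barcodes held 5. Of the 4 other treated S100-rich barcodes, 1 of 1141 UMIs held 34 S100a8 and 62 S100a9 with 11 UMIs of Il1r2, a decoy interleukin-1 receptor of mature neutrophils, and 2 of Retnlg; 1 of 1017 UMIs held 1 S100a8 and 7 S100a9 with 6 of the 12 markers, led by 6 UMIs of Stfa2l1 and 5 of Csf3r, the receptor of granulocyte colony-stimulating factor. In both of these, Camp, Ngp, Ltf and Lcn2 were at 0. The remaining 2 had none of the 12 markers: 1 of 14591 UMIs was macrophage-like with 47 UMIs of the complement gene C1qc and held 10 S100a8 and 1 S100a9, and 1 of 7441 UMIs was Ptprc-low and held 3 S100a8 and 2 S100a9.

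No PBS S100-rich barcode carried Camp, Ngp or Ltf, and 3 of the 6 carried any of the 12 markers. 1 of 4231 UMIs held 32 S100a8, 29 S100a9 and 1 Lcn2 with 4 of the 12 markers, including 7 UMIs of Il1r2, 3 of Retnlg and 2 of Hdc, and also 11 of Dcn. 1 of 547 UMIs held 3 S100a8 and 10 S100a9 with 1 UMI of Retnlg. The other 4 had S100a8 without any S100a9: 12 UMIs in a barcode of 5627 with 19 UMIs of Ly6c2 and 38 of Plac8, monocyte genes, 4 of Lcn2 and 4 of the marker Trem1, then 6, 5 and 5 UMIs in barcodes of 6530, 10400 and 3002. The barcode sequence of the last also occurs in the treated library, where it carries no granule gene UMI.

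**Figure D2:**
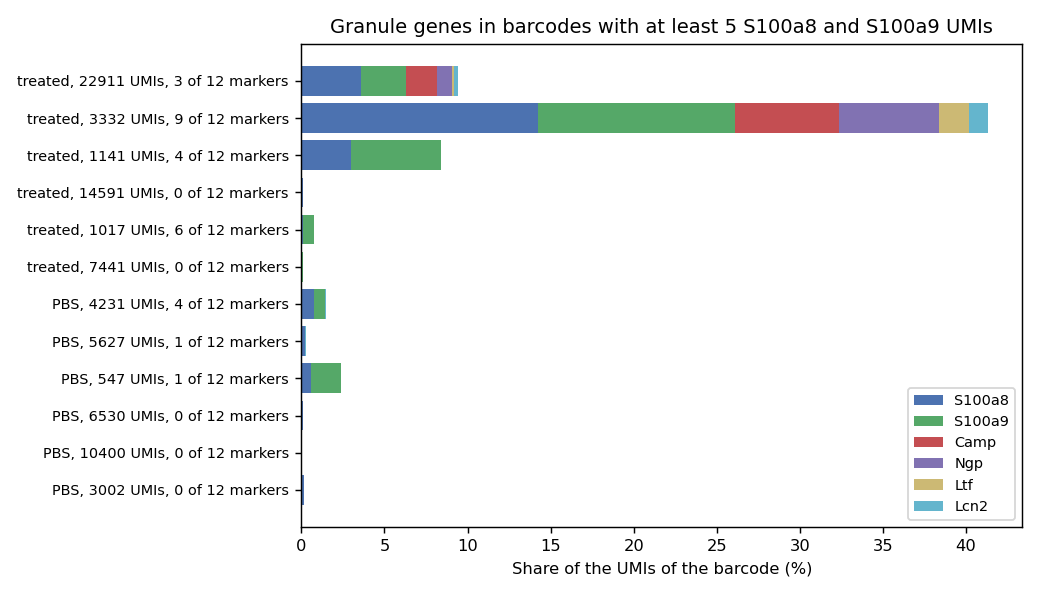
Share of the UMIs of each barcode (%, x axis) taken by each of the 6 genes in the 12 barcodes with at least 5 S100a8 and S100a9 UMIs, treated above and PBS below, labelled by total UMIs and by the number of the 12 neutrophil markers seen. Camp, Ngp and Ltf appear in the top 2 bars only, where the 6 genes reach 9.43% and 41.3%.

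Neutrophils were also looked for without the granule genes, by barcodes with UMIs of at least 3 of the 12 markers. This gave 37 treated barcodes (0.370%, 0.261 to 0.510%) and 21 PBS barcodes (0.234%, 0.145 to 0.358%), but only 4 treated and 1 PBS of them had S100a8, and their median totals of 14831 treated and 15232 PBS UMIs were far above those of the libraries. Most barcodes that met the rule were deep and carried no S100a8. With at least 4 markers, 6 treated and 3 PBS barcodes were left, of which 3 treated and 1 PBS had S100a8. With at least 5, 2 treated barcodes were left (0.0200%, 0.00242 to 0.0722%), both with S100a8 and S100a9. The PBS library had 0, which allows up to 0.0335% at 3 counts, above the treated share. With the 6 genes left out, no cluster met more than 2 of the 12 markers at resolution 1.0, and 1 monocyte-like cluster met 4 at resolution 2.0. When the 6 genes were allowed in the clustering at resolution 1.0, 1 monocyte-like cluster also met 4.

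Retnlg lay wholly in the S100-rich barcodes, and the other rare markers did so in part. All 17 treated Retnlg UMIs, in 3 barcodes, and all 4 PBS Retnlg UMIs, in 2 barcodes, were there. The 4 treated UMIs of Ly6g were in the barcode of 3332 UMIs, whereas the 2 PBS UMIs of Ly6g lay in 2 barcodes that were not S100-rich. All 7 treated Itgb2l UMIs were in the 2 barcodes with all 6 genes, and 6 of 7 treated Stfa2l1 UMIs were in S100-rich barcodes, but the 1 PBS UMI of each was not. Cxcr2, a chemokine receptor, had 21 treated and 16 PBS UMIs, of which 1 treated and 0 PBS lay in S100-rich barcodes. By contrast Csf3r, with 514 treated and 421 PBS UMIs, had 9 treated and 0 PBS UMIs in S100-rich barcodes, and Il1r2, with 1887 treated and 961 PBS UMIs, had 14 treated and 7 PBS there. Every barcode with Retnlg, 3 treated and 2 PBS, thus also carried S100a8 and S100a9.

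The share of each gene in those barcodes differed by gene and by library. In the PBS library, S100-rich barcodes held 64.9% of S100a8 UMIs, 95.1% of S100a9 and 29.4% of Lcn2, and none of the 6 Camp, 1 Ngp and 64 Ltf UMIs. In the treated library they held 94.9% of S100a8, 97.6% of S100a9, 96.5% of Camp, 94.2% of Ngp, 67.4% of Ltf and 87.9% of Lcn2.

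**Figure D3:**
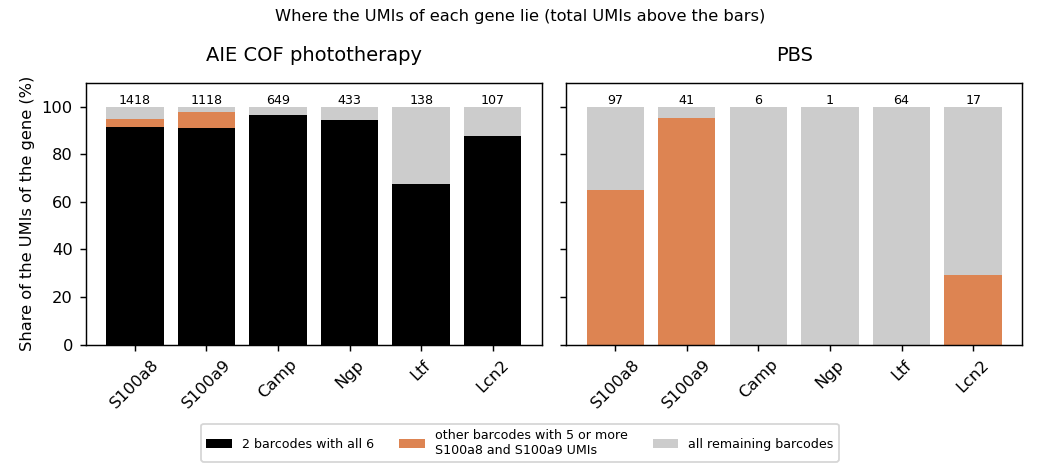
Share of the UMIs of each gene (%, y axis) in the 2 treated barcodes with all 6 genes (black), in the other barcodes with 5 or more S100a8 and S100a9 UMIs (orange) and in all remaining barcodes (grey), treated left and PBS right, with total UMIs above the bars. Black fills 67.4% to 96.5% of the treated bars and is missing from the PBS bars.

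The calprotectin genes showed how far the difference between libraries depends on those cells. S100a8 stood at 12.3 CPM (11.6 to 12.9) in the treated library and 0.669 CPM (0.542 to 0.816) in the PBS library, a log2 ratio of 4.20 (3.90 to 4.51). Without the 2 barcodes with all 6 genes it was 1.04 CPM treated and 0.669 CPM PBS, a log2 ratio of 0.63 (0.24 to 1.04). Without the S100-rich barcodes of both libraries it was 0.623 CPM treated and 0.234 CPM PBS, from 72 treated and 34 PBS UMIs, a log2 ratio of 1.41 (0.80 to 2.04). The S100-rich rule used these same counts and so capped what was left. No result is read from that ratio.

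S100a9 was at 9.67 CPM (9.11 to 10.3) in the treated library and 0.283 CPM (0.203 to 0.383) in the PBS library, a log2 ratio of 5.10 (4.65 to 5.58). Without the 2 barcodes the log2 ratio was 1.60 (1.06 to 2.16), from 99 treated and 41 PBS UMIs. Without the S100-rich barcodes, 27 treated UMIs in 25 barcodes stood against 2 PBS UMIs in 2 barcodes, a log2 ratio of 4.08 with an interval of 2.09 to 7.20. That ratio was also set in part by the rule, which took out 97.6% of treated and 95.1% of PBS S100a9 UMIs. The partners were rarely detected together: 11 treated and 2 PBS barcodes had both, whereas 49 treated and 28 PBS barcodes had S100a8 without S100a9, with 65 treated and 62 PBS UMIs in all.

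Camp and Ngp, the genes of immature neutrophils, had the widest ratios and the fewest PBS counts. Camp stood at 5.62 CPM (5.19 to 6.06) treated and 0.0414 CPM (0.0152 to 0.0900) PBS, a log2 ratio of 7.08 (5.95 to 8.54), and Ngp at 3.75 CPM (3.40 to 4.12) treated and 0.00689 CPM PBS, from 1 UMI, a log2 ratio of 9.09 (6.60 to 14.4). Without the 2 barcodes, Camp had 23 treated and 6 PBS UMIs, a log2 ratio of 2.27 (0.93 to 3.85), and Ngp 25 treated and 1 PBS, a log2 ratio of 4.97 (2.36 to 10.3). Each of those 23 Camp and 25 Ngp treated UMIs was the only UMI of its gene in its barcode, as were the PBS UMIs of both genes. The carriers were deep, with median totals of 27685 UMIs for Camp and 30261 for Ngp in the treated library.

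For the iron-handling genes, the difference between libraries rested on the 2 barcodes. Ltf was at 1.19 CPM (1.003 to 1.41) in the treated library and 0.441 CPM (0.340 to 0.563) in the PBS library, a log2 ratio of 1.44 (0.998 to 1.89), but outside the 2 barcodes 45 treated and 64 PBS UMIs gave a log2 ratio of -0.18 (-0.76 to 0.39). Lcn2 was at 0.926 CPM (0.759 to 1.12) treated and 0.117 CPM (0.0683 to 0.188) PBS, a log2 ratio of 2.98 (2.24 to 3.81), against -0.06 (-1.22 to 1.07) from 13 treated and 17 PBS UMIs outside the 2 barcodes. Both of these intervals include 0, and that of Lcn2 allows a difference of more than 2-fold either way.

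**Figure D4:**
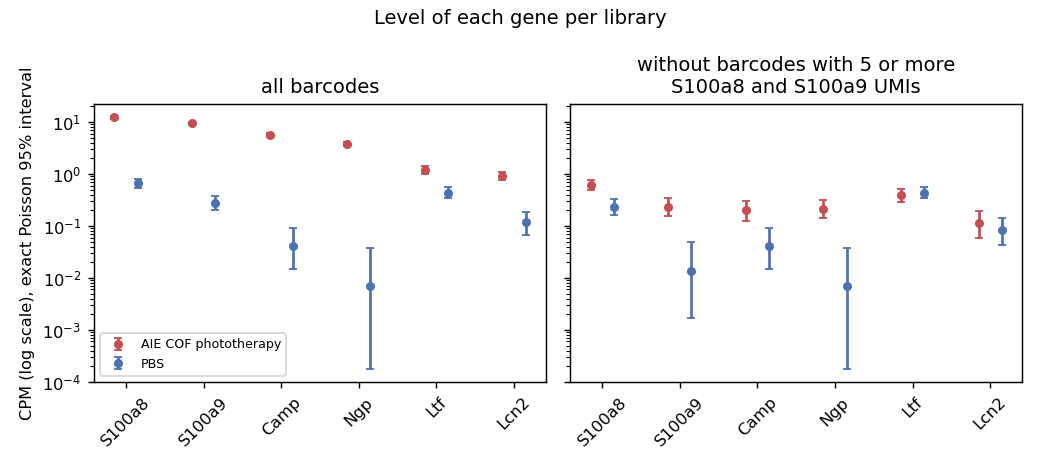
Level of each gene in CPM (log axis) with its exact Poisson 95% interval, treated left of PBS for each gene, over all barcodes (left panel) and without barcodes of 5 or more S100a8 and S100a9 UMIs (right panel). S100a8 moves from 12.3 to 0.623 CPM in the treated library between the panels, and the Ltf and Lcn2 intervals of the libraries overlap on the right. The barcodes left out were chosen by S100a8 and S100a9 counts, so the right panel caps both of these genes.

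Outside the S100-rich barcodes, the classes that held the remaining UMIs differed by gene. RNA free in the suspension puts UMIs of a gene into droplets of every kind, so the share of each class in the clustered cells and in their UMIs is given beside the counts. Ptprc-low cells made up 38.9% of the treated clustered cells and held 81.1% of their UMIs, and monocyte-like cells made up 10.4% and held 4.89%. Of 21 treated Ngp UMIs in clustered cells, 17 (81.0%, 58.1 to 94.6%) lay in Ptprc-low cells, and of 20 Camp UMIs, 14 (70.0%, 45.7 to 88.1%). Both shares lay above the share of cells and had intervals that include the share of UMIs. S100a8 had 31 of 62 (interval 37.0 to 63.0%) in Ptprc-low cells, an interval that includes the share of cells, and 23 (37.1%, 25.2 to 50.3%) in monocyte-like cells, above both shares of that class. In the PBS library 15 of 34 S100a8 UMIs (44.1%, 27.2 to 62.1%) lay in monocyte-like cells, which made up 7.16% of the clustered cells and held 2.66% of their UMIs.

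The ratios between the genes changed as well. Per UMI of S100a8, the 2 treated barcodes with all 6 genes held 0.785 UMIs of S100a9, 0.482 of Camp, 0.314 of Ngp, 0.0716 of Ltf and 0.0724 of Lcn2. Outside the S100-rich barcodes the treated library held 0.375 of S100a9, 0.319 of Camp, 0.347 of Ngp, 0.625 of Ltf and 0.181 of Lcn2, and the PBS library 0.0588 of S100a9, 0.176 of Camp, 0.0294 of Ngp, 1.88 of Ltf and 0.353 of Lcn2. Treated Ngp and Camp outside were nearest to their ratios in the 2 barcodes, and Ltf was farthest in both libraries. The S100-rich rule capped S100a8 and S100a9 outside and not the other genes, which shifts these ratios. Both barcodes with all 6 genes are treated ones and give no reference for the PBS library. How much of the outside signal is free RNA was not tested.

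Lymphocytes, which do not make these proteins, gave the level of background per cell. In B-like and T-like cells together, S100a8 was found in 1 of 1503 treated cells (0.0665%, 0.00168 to 0.370%) and in 0 of 737 PBS cells, which allows up to 0.407% at 3 counts. Any of the 6 genes was found in 5 of 1503 treated and 3 of 737 PBS lymphocytes. Median totals were 1156 UMIs in treated and 1483 in PBS B-like cells and 2213 in treated and 3204 in PBS T-like cells, shallower than the monocyte-like cells they are set against.

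In the monocyte-like class, led by Chil3, Ly6i, Il1b and Plac8, S100a8 was found in 17 of 893 treated cells (1.90%, 1.11 to 3.03%) and in 15 of 563 PBS cells (2.66%, 1.499 to 4.36%), with median totals of 4572 treated and 5057 PBS UMIs. After thinning to 1000 UMIs it was found in 7 of 869 treated cells and 8 of 557 PBS cells. Over all cells of the class the level was 106.7 CPM treated and 23.1 CPM PBS, and 3 treated and 6 PBS cells were S100-rich. Without those it was 4.62 CPM (2.93 to 6.93) treated and 4.48 CPM (2.51 to 7.39) PBS, intervals that overlap. With the 6 genes allowed in the clustering, a smaller monocyte-like cluster gave 7.86 CPM (2.88 to 17.1) treated and 18.9 CPM (9.04 to 34.7) PBS, intervals that also overlap. In the first class without its S100-rich cells, S100a9 had 2 treated UMIs and 0 PBS UMIs, and Lcn2 had 5 treated and 7 PBS UMIs. S100-rich cells were picked by their own S100a8 and S100a9 counts, so the levels left of both genes are capped. Of the S100a8 UMIs of that class, 23 of 532 treated and 15 of 78 PBS were left. The levels left do not give S100a8 in monocyte-like cells as a whole.

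In Ptprc-low cells without the S100-rich barcodes, S100a8 was at 0.375 CPM (0.255 to 0.532) treated and 0.132 CPM (0.0741 to 0.218) PBS, and Ngp at 0.205 CPM (0.120 to 0.329) treated against 0 of 113334258 UMIs in PBS. Ltf did not follow, with 0.266 CPM (0.167 to 0.403) treated and 0.326 CPM (0.230 to 0.450) PBS. In the monocyte-like class without those barcodes, Ltf was at 0.603 CPM (0.124 to 1.76) from 2 treated cells and 3.88 CPM (2.07 to 6.64) from 6 PBS cells. Over all cells of the class it was at 12.6 CPM treated and 3.85 CPM PBS, and under both other clusterings neither library had a Ltf UMI in the class outside the S100-rich barcodes. Lcn2 had a small site of its own in the fibroblast-like cluster, with 7 UMIs in 2 of 30 treated cells and 4 UMIs in 1 of 26 PBS cells. Those few cells held 53.8% of the treated and 33.3% of the PBS Lcn2 UMIs outside the S100-rich barcodes.

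**Figure D5:**
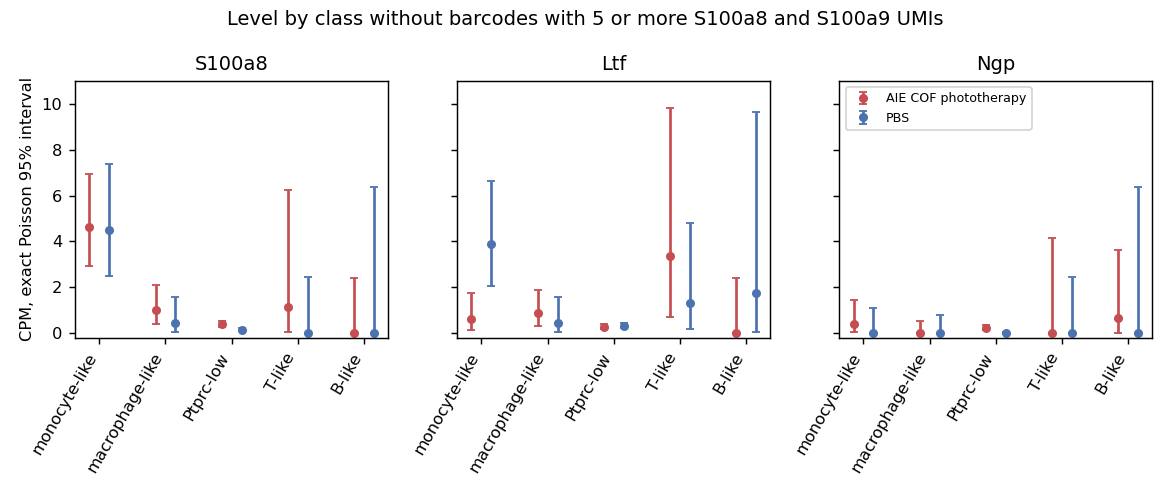
CPM of S100a8, Ltf and Ngp (panels) in 5 cell classes with exact Poisson 95% intervals, treated left of PBS, without barcodes of 5 or more S100a8 and S100a9 UMIs. S100a8 is highest in monocyte-like cells, at 4.62 CPM treated and 4.48 CPM PBS, and Ngp stays at or below 0.649 CPM in every class shown. The S100a8 levels are capped, since the barcodes left out were chosen by S100a8 and S100a9 counts.

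The genes whose levels ran most like those of the 6 were sought by Pearson correlation on log2(CPM + 1) over 30 sums of cluster and library, which share 2 libraries and few positive barcodes. Wfdc21, a whey acidic protein of neutrophil granules, came first for S100a8 (r = 0.89), S100a9 (0.92), Camp (0.96), Ngp (0.95) and Lcn2 (0.94). Cd177, a surface protein of neutrophils, was among the 5 most alike for those same genes, at r of 0.65 to 0.78. For Camp and Ngp it stood behind Tmem252 (0.74 for Camp, 0.70 for Ngp), and Thbs4, Ighg1 and Cyp1b1 were also among the 5 of 1 or both of these genes. The closest to Ltf was Cass4, at 0.65. Wfdc21 had 104 treated UMIs in 12 barcodes and 17 PBS UMIs in 10 barcodes, and 94 of the 104 lay in the 2 barcodes with all 6 genes. Against all other treated barcodes, and among genes with at least 20 UMIs in them, the treated S100-rich barcodes were highest in Wfdc21, Stfa1, Ifitm6, Hp and Chil3, followed by Ccl12, Slc16a10, Rab7, Ccl4 and Atp1b3, a description since the barcodes were chosen by S100a8 and S100a9.

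The wider pathway is given by lists chosen with earlier results of these data known, counted at 1.5-fold among genes with at least 50 UMIs and set beside all 15954 genes, of which 8.94% were higher and 4.63% lower, with a median log2 ratio of 0.01. Of the 6 primary granule genes only Prtn3, proteinase 3, was measured, with 40 treated and 75 PBS UMIs, and Mpo had 6 treated and 12 PBS UMIs. Of 16 measured secondary and tertiary granule genes outside the 6, 10 were higher and none lower, with a median log2 ratio of 0.89. Several are made by macrophages too, such as Lyz2, lysozyme, with 52196 treated and 39101 PBS UMIs, and Cybb, the NADPH oxidase subunit, with 21429 treated and 12113 PBS UMIs. The list ratios are over whole libraries. Monocyte-like cells held 4.89% of treated and 2.66% of PBS UMIs in clustered cells, and macrophage-like cells 6.82% and 3.67%. Within monocyte-like cells, Lyz2 was at 4518 CPM treated and 5004 CPM PBS, and Cybb at 1620 CPM treated and 1280 CPM PBS. How far the class shares account for the list counts was not tested. Slpi, an antiprotease counted among the 10, had 6207 of its 7032 treated UMIs in 34 plasma-like cells and 1768 of its 2120 PBS UMIs in 10 plasma-like cells; the part of these cells in the list was not tested. Of the treated UMIs, 0.249% for Lyz2 and 0.177% for Cybb lay in the 2 barcodes with all 6 genes.

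Of 12 measured genes of mature neutrophils, 8 were higher and none lower, beside 8.94% and 4.63% of all genes, with a median log2 ratio of 0.87; Il1b had 23027 treated and 12016 PBS UMIs, with 0 treated UMIs in the 2 barcodes. Of the 12 markers used for the barcode rule, 7 were measured, of which 5 were higher and none lower, with a median log2 ratio of 1.25. Some of these markers lay largely in other classes. Il1r2 had 754 of its 1887 treated UMIs in mature dendritic-like cells, and Mmp9 had 1738 of its 2168 in Ptprc-low cells. Of 7 measured receptors of the encoded proteins, 3 were higher, with a median of 0.34; Tlr4, a receptor of calprotectin, had 1825 treated and 1805 PBS UMIs. Of 7 measured transcription factors of granule genes, 2 were higher, Cebpa with a log2 ratio of 0.90 and Cebpb with 0.59, and Cebpe, the factor of secondary granules, was under the minimum with 12 treated and 16 PBS UMIs. Within monocyte-like cells, Cebpb was at 637 CPM treated and 686 CPM PBS, whereas Il1r2 was at 133 CPM treated and 72.5 CPM PBS. Among neutrophil growth and recruitment signals, 4 of 6 measured were higher, and the neutrophil-attracting chemokines Cxcl2 and Cxcl1 had 25896 and 18420 treated UMIs, against 12117 and 10424 PBS UMIs. Csf3, the growth factor of neutrophils, had 1 treated and 3 PBS UMIs.

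The neighbours of the calprotectin genes in the S100a cluster of chromosome 3 did not share their difference between libraries. Of 9 measured, none was 1.5-fold higher or lower and the median log2 ratio was -0.12; S100a6 had 1219218 treated and 1598212 PBS UMIs, a log2 ratio of -0.06. Anxa1, G0s2, Fpr2 and Cxcr1 were at 0 in both libraries, and 3 of these 4 genes overlap another annotated gene. Of the 89 genes in the lists and the granule set together, 15 overlap another gene, and overlapping genes were also detected. Il1b, which overlaps Il1bos, had 23027 treated and 12016 PBS UMIs. Cebpb, which overlaps Tmem189, had 8888 treated and 7398 PBS UMIs. Whether overlap bears on the counts of 0 was not tested.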

How the data were processed

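Single-cell suspensions of 1 treated and 1 PBS tumour sample were prepared with a MobiDrop 3′ kit and read on a NovaSeq sequencer, per the labels' protocols. STAR and mm10 were used, per the submitters' processing notes; for versions, counting program and annotation, nothing is stated in those sources. The authors deposited raw UMI counts, whole numbers for each gene in each barcode.

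The genes, lists and thresholds were chosen with earlier results of these data known. UMIs were summed per library over all deposited barcodes. Levels carry exact Poisson intervals, shares exact Clopper-Pearson intervals and ratios exact conditional binomial intervals, at 95% and for counting error only. The limit for a count of 0 is 3 counts of the total, which is tighter than the exact bound. Intervals and thinning were tested on simulated data. For classes, barcodes with at least 200 genes and at most 20% mitochondrial UMIs were kept, Scrublet scores removed 694 treated and 569 PBS barcodes, and scanpy 1.11.5 clustered both libraries together (2000 variable genes without the 6, 30 components, 15 neighbours, Leiden resolution 1.0). Clusters were named from listed markers: a type needed 3 or more of them, and a majority of those detected, at 25% or more of the top cluster's level and seen in 5% or more of the cells. These names are rebuilt here and may differ from the study's. Named genes were the 6, up to 5 abundant genes of each list, the 5 most correlated with each of the 6, and the 10 highest in S100-rich barcodes; other genes named for single barcodes were chosen after their values were seen. Alternatives were the kept cells, other weights and scalings, thinning to 1000 UMIs, other thresholds and other clusterings.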

Additional observations from a re-analysis of the deposited data

How the results depend on the processing

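No paired analysis was possible because each condition has 1 library and no result comes from a test. The log2 ratios of treated over PBS stayed within their counting intervals in kept cells and under a median-ratio size factor for all 6 genes. They moved beyond them without the 10 richest barcodes of each library (1.64 for S100a8, 3.13 for S100a9, 2.65 for Camp, 2.83 for Ngp and 0.10 for Ltf; PBS S100a9, Camp and Ngp were then at 0 and taken at 3 UMIs, and Lcn2 gave no value), with equal weight of each barcode (2.86 for S100a8, 2.92 for S100a9 and 1.93 for Lcn2), after thinning to 1000 UMIs (3.34 for S100a8, 5.65 for S100a9, 4.54 for Ngp and 1.94 for Ltf, PBS Ngp at 0 and taken at 3 UMIs) and as a ratio of shares of barcodes (0.84 for S100a8, 2.80 for S100a9, 1.90 for Camp, 4.596 for Ngp, -0.33 for Ltf and 0.012 for Lcn2). In alternatives chosen after seeing the data, they moved without S100-rich barcodes (1.41 for S100a8, 4.08 for S100a9, 2.27 for Camp, 4.97 for Ngp, -0.18 for Ltf and 0.44 for Lcn2) and without the 2 barcodes with all 6 genes (0.63 for S100a8, 1.60 for S100a9, 2.27 for Camp, 4.97 for Ngp, -0.18 for Ltf and -0.059 for Lcn2). The S100-rich rule used the counts of S100a8 and S100a9, so their values without S100-rich barcodes partly follow from it. At 2 or more UMIs, carriers in the treated and PBS library numbered 17 and 13 for S100a8, 7 and 2 for S100a9, 2 and 0 for Camp, 2 and 0 for Ngp, 7 and 8 for Ltf, 4 and 3 for Lcn2. Barcodes with neutrophil markers numbered 356 treated and 225 PBS at 2 markers, 6 treated and 3 PBS at 4, 3 treated and 0 PBS after thinning, 7 treated and 4 PBS where markers made up at least 0.1% of the UMIs (chosen after seeing the data). In monocyte-like cells, S100a8 was at 625.7 treated and 41.0 PBS CPM with the 6 genes allowed in the clustering and 438.9 treated and 95.4 PBS CPM at resolution 2.0. In monocyte-like cells, S100a9 was at 516.2 treated and 0 PBS CPM with the 6 genes allowed in the clustering and 361.7 treated and 58.1 PBS CPM at resolution 2.0; the cause was not tested. Outside S100-rich barcodes of that class, S100a8 was at 7.86 treated and 18.9 PBS CPM with the 6 genes allowed and 12.6 treated and 16.8 PBS CPM at resolution 2.0, and Ltf was at 0 in both libraries under both. With a minimum of 10 UMIs, 1 S100a neighbour was 1.5-fold higher in place of 0. Background was 9.80% higher and 6.90% lower without the 10 richest barcodes of each gene. With 1 library per condition, the spread between animals is not known, and levels that rest on 1 to 6 barcodes carry more error than their counting intervals show.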

Other observations

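The 6 genes were not alone in lying in few treated barcodes. Among 14229 genes ranked by the share of their UMIs in their own 2 richest treated barcodes, the mast cell protease genes Mcpt4 (98.4% of 61 UMIs), Mcpt2 (96.7% of 180), Tpsb2 (96.7% of 60) and Cma1 (94.7% of 190) stood at places 2, 3, 4 and 6, and Reg1, with 56 UMIs, at place 1. These genes were named after their values were seen.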
